A study of Mus musculus with 4 samples.

Results

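The enteroendocrine hormones and granins are 10 genes of the hormone-secreting cells of the gut, out of 16015 genes listed for colonic epithelium in colitis. The granins *Chga*, *Chgb* and *Scg2*, the transcription factor gene *Neurod1*, the peptide hormone genes *Pyy*, *Gcg*, *Insl5*, *Cck* and *Sct*, and the serotonin enzyme gene *Tph1* were matched by gene symbol, and 10 of 10 were listed. These members were chosen by their levels in the same libraries that are described here, so their differences between the groups are given as a description and carry no test. The tests below concern other genes related to enteroendocrine cells and their products. Their lists were also written with earlier results of these 4 libraries known, so they are not independent evidence of the members' direction.

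The study asked what loss of *Bmal1*, a core gene of the circadian clock, in the intestinal epithelium does to colitis. The 4 libraries came from colonic epithelial cells of 2 mice labelled WT, which the methods give as *Bmal1* fl/fl, and 2 mice labelled *Bmal1* cKO, which are *Villin-CreERT2; Bmal1* fl/fl. All mice were C57BL/6 and 2 to 4 months old, and both groups carry the floxed alleles. *Villin* drives the Cre in epithelium of the small and large intestine and not in immune or stromal cells, Cre was activated with tamoxifen on 5 consecutive days, and the text does not say whether the controls received tamoxifen. Both groups drank 3% dextran sulfate sodium (DSS), a detergent-like polymer that injures the colonic epithelium, for 5 days, followed by water for 2 days, and were sampled on day 7. There was no library without DSS, so a level before colitis was not available for comparison here.

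Enteroendocrine cells are rare epithelial cells that arise from crypt stem cells under the transcription factor NEUROG3 and release peptides or serotonin from granules at their base. In the colon they are mainly L cells, which make peptide YY, the glucagon-like peptides cut from the *Gcg* product and insulin-like peptide 5, and enterochromaffin cells, which make serotonin. Granins are acidic proteins packed with the hormones in these granules, and *Chga* is the gene most used to mark the cells.

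The promoters of 6 members are shown. All but that of *Pyy* hold elements that the text refers to, for factors named in this study or known in endocrine cells. Each line gives the 150 bases before the transcription start in GRCm38.p6, as RefSeq gives them, read 5′ to 3′ on the strand of the gene. Capitals mark TGACGTCA, the cAMP response element, or its variant TGACGTAA in the granins, CAGATG, an E-box of the kind that NEUROD1 binds, and TATAAA, the TATA box, in *Gcg*, and CACGTG, the E-box of CLOCK and BMAL1, and CAGATG in *Cck*. *Pyy* held none of these letters in its window and is shown beside *Gcg* because the levels of these L cell genes diverged most.
Chga, chr12:102554791-102554940, plus strand: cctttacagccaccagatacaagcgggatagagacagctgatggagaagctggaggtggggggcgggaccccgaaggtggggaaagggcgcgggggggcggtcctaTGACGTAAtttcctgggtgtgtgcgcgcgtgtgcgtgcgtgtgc
Chgb, chr2:132781492-132781641, plus strand: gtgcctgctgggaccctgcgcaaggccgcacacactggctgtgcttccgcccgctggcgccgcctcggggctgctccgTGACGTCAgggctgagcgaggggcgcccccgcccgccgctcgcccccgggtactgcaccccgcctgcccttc
Scg2, chr1:79440027-79440176, minus strand: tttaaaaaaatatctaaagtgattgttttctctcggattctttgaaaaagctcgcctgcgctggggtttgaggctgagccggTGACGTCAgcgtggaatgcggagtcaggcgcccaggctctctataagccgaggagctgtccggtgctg
Gcg, chr2:62483654-62483803, minus strand: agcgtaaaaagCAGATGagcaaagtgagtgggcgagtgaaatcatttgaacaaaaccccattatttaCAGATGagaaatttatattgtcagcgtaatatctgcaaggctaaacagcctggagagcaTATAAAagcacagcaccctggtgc
Pyy, chr11:102107833-102107982, minus strand: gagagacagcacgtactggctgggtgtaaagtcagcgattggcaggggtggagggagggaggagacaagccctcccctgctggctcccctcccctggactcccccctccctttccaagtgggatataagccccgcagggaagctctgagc
Cck, chr9:121495695-121495844, minus strand: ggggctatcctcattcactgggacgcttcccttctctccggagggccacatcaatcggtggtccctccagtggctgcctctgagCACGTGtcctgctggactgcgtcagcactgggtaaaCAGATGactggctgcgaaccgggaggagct

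The search covered 250 bases before each start, on both strands except for TATAAA, in 32851 promoters of 27025 genes, and all 10 members had a promoter. CACGTG was in 6.02% of all promoters and, among the members, only in *Cck*, at 66 to 61 bases before the start. TGACGTCA was in 1.55% of all promoters and in those of *Chgb* and *Scg2*, and TGACGTAA, which was looked for after the *Chga* window had been read, was in 0.447% and in *Chga*. CAGATG or its reverse complement CATCTG was in 14.4% of all promoters and in those of *Gcg*, *Insl5*, *Cck* and *Sct*. TATAAA on the transcribed strand was in 7.59% of all promoters and in those of *Gcg*, *Insl5* and *Sct*. A match of letters is a description of the sequence and not a measured binding site.

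Between 10312791 and 14156639 reads per library fell on the listed genes. The targeted gene, named *Arntl* in the annotation, read 358 and 342 normalized counts in the controls and 341 and 289 in the cKO-labelled libraries, which is -0.16 ± 0.14 as a log2 fold change (standard error, n = 2 per group, limma, adjusted p = 0.389). Counts over the whole gene cannot show the loss of one exon, and these values do not separate the genotypes, so the libraries are called by their labels throughout and every direction below rests on those labels. Epithelial markers such as *Epcam* and *Krt8* summed to between 149295 and 171795 in the controls and between 135438 and 142379 in the cKO-labelled libraries, so the labelled cell type was present in each. Marker genes of several other cell types were lower too, and their part in the results below was not tested. Leukocyte markers (12 of 12 listed) summed to between 10377 and 19357 in the controls and 1202 and 1275 in the cKO-labelled libraries. Stromal and muscle markers (10 of 10 listed) summed to between 3441 and 15056 against 460 and 503. Goblet cell markers (9 of 9 listed) summed to between 239538 and 487202 against 74006 and 105345. Among the goblet cell markers *Agr2*, *Atoh1* and *Spink4* overlapped between the groups, and the others were lower without overlap. Tuft cell markers (7 of 10 listed) summed to between 817 and 1104 against 165 and 239. Absorptive colonocyte markers (10 of 10 listed) overlapped, with 29552 and 50246 in the controls against 40816 and 50406.

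All 10 members were lower in both cKO-labelled libraries than in both controls. Their summed level was 11344 and 16482 normalized counts in the controls and 2389 and 2122 in the cKO-labelled libraries, 6.17-fold lower in the mean. As a share of all reads on listed genes this was 0.0974% and 0.137% against 0.0174% and 0.0152%. Of the 13983 genes tested, whose mean reached 10 normalized counts, 41.7% were lower in both cKO-labelled libraries than in both controls. By limma 9 of the 10 members were called lower (adjusted p under 0.05) and 0 higher, against 27.7% of all tested genes called lower and 29.0% called higher. Since the members were chosen on this contrast, nothing is read from these counts. In bulk libraries, fewer enteroendocrine cells and less RNA of these genes in each cell cannot be told apart.

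**Figure D1:**
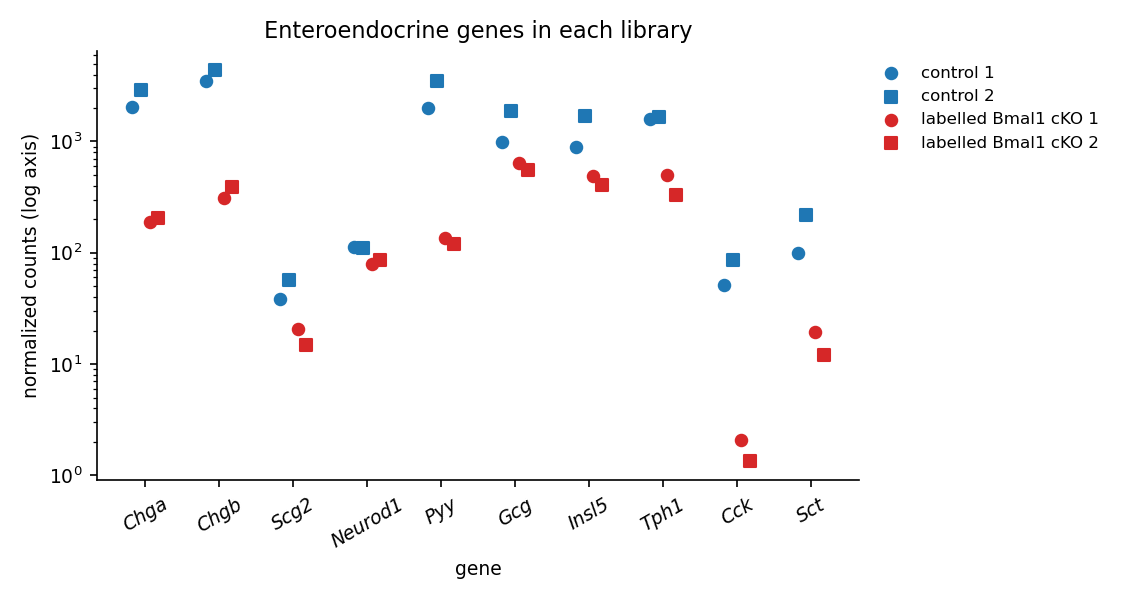
Normalized counts (log axis) of the 10 members in each of the 4 libraries, with blue for the controls, red for the cKO-labelled libraries, and circles and squares for mouse 1 and mouse 2. In each gene both red symbols lie below both blue ones, with the widest distance for *Cck* and *Pyy* and the narrowest for *Neurod1*.

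Of the granins, *Chga*, whose product chromogranin A serves as the general stain for enteroendocrine cells, read 2031 and 2930 normalized counts in the controls and 188 and 207 in the cKO-labelled libraries. The lower control was 9.82-fold above the higher cKO-labelled library, and the log2 fold change was -3.62 ± 0.19 (standard error, as for the other members below). *Chgb*, which encodes chromogranin B of the same granules, gave 3503 and 4367 against 313 and 392, a log2 fold change of -3.48 ± 0.16. The number of *Chgb* counts per *Chga* count was 1.73 and 1.49 in the controls and 1.66 and 1.90 in the cKO-labelled libraries, so this ratio overlapped between the groups. *Scg2*, which encodes secretogranin II, had 38.0 and 56.8 normalized counts in the controls against 20.6 and 14.9 (log2 fold change -1.36 ± 0.45). Its counts rest on only 20 and 11 reads in the cKO-labelled libraries.

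*Neurod1*, a transcription factor gene of enteroendocrine cells that have left the cell cycle, differed least of the members on this scale. It read 113 and 110 normalized counts in the controls and 79.2 and 86.5 in the cKO-labelled libraries (log2 fold change -0.43 ± 0.22). The groups did not overlap, but *Neurod1* was the member that limma did not call. Relative to *Chga* it was higher in the cKO-labelled libraries, with 0.0557 and 0.0376 *Neurod1* counts per *Chga* count in the controls against 0.421 and 0.418.

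The L cell products differed by unlike amounts. *Pyy*, which encodes the appetite-suppressing peptide YY, had 2013 and 3497 normalized counts in the controls and 137 and 120 in the cKO-labelled libraries, 21.4-fold lower in the mean (log2 fold change -4.36 ± 0.27). *Gcg*, whose product is cut to glucagon-like peptides 1 and 2 in L cells, had 999 and 1867 against 643 and 553, which is 2.40-fold lower (log2 fold change -1.19 ± 0.30). *Insl5*, an L cell hormone of the distal colon, had 890 and 1699 against 489 and 403, or 2.90-fold lower (log2 fold change -1.47 ± 0.31). The lower control exceeded the higher cKO-labelled library by 14.7-fold for *Pyy* and by 1.55-fold for *Gcg*.

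The proportions among these L cell genes were nearly the same in both mice of a group. There were 0.496 and 0.534 *Gcg* counts per *Pyy* count in the controls and 4.70 and 4.60 in the cKO-labelled libraries, a 9.02-fold higher ratio. *Insl5* per *Gcg* was 0.891 and 0.910 in the controls and 0.760 and 0.729 in the cKO-labelled libraries, a smaller shift than that of either against *Pyy*. These ratios are from normalized counts as deposited: after the correction for GC content described below, *Gcg* per *Pyy* was 2.97-fold higher, and *Insl5* per *Gcg* was 1.20-fold higher in place of lower. Both controls differed from each other far more in level than in these ratios: control 2 had 1.74-fold more *Pyy*, 1.87-fold more *Gcg* and 1.91-fold more *Insl5* than control 1.

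*Tph1*, the enzyme gene for the rate-limiting step of serotonin synthesis in enterochromaffin cells, gave 1606 and 1651 normalized counts in the controls and 499 and 333 in the cKO-labelled libraries. The controls lay within 1.03-fold of each other, and the mean was 3.92-fold lower in the cKO-labelled libraries (standard error 0.20 on the log2 scale). *Cck*, which encodes cholecystokinin and is better known from the small intestine, gave 51.5 and 85.6 against 2.06 and 1.35. These are 162 reads in the controls together and 3 in the cKO-labelled libraries, so the normalized levels of *Cck* had a ratio of 39.1 with an exact 95% counting interval of 13.1 to 192, which covers counting error only. Its fitted log2 fold change of -4.65 ± 0.63 depends on the pseudocount. *Sct*, which encodes secretin, gave 99.7 and 219 against 19.5 and 12.2 (log2 fold change -3.18 ± 0.50), and was the member on which the controls differed most, by 2.20-fold.

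Per kilobase of exon, and without the GC content correction, the order of the members differed between the groups. The order on the corrected scale was not computed. In the controls *Pyy* led with 3191 and 5541 normalized counts per kilobase, above *Insl5* (1229 and 2347), *Chgb* (1279 and 1594), *Gcg* (668 and 1250) and *Chga* (737 and 1063). Of these neighbours, *Insl5* and *Chgb* overlapped, and so did *Gcg* and *Chga*. *Tph1* (260 and 267) and *Sct* (155 and 340) overlapped, as did *Cck* (39.5 and 65.6) and *Neurod1* (41.5 and 40.4), and *Scg2* was last (15.1 and 22.6). In the cKO-labelled libraries *Insl5* was first with 675 and 556 per kilobase, then *Gcg* with 430 and 370, and *Pyy* came next with 217 and 191. Below them *Chgb* (114 and 143) lay above *Chga* (68.3 and 75.0), whose range overlapped that of *Tph1* (80.8 and 53.9). *Neurod1* (29.0 and 31.7) overlapped *Sct* (30.3 and 18.9), and *Scg2* (8.18 and 5.91) lay above *Cck* (1.58 and 1.04).

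**Figure D2:**
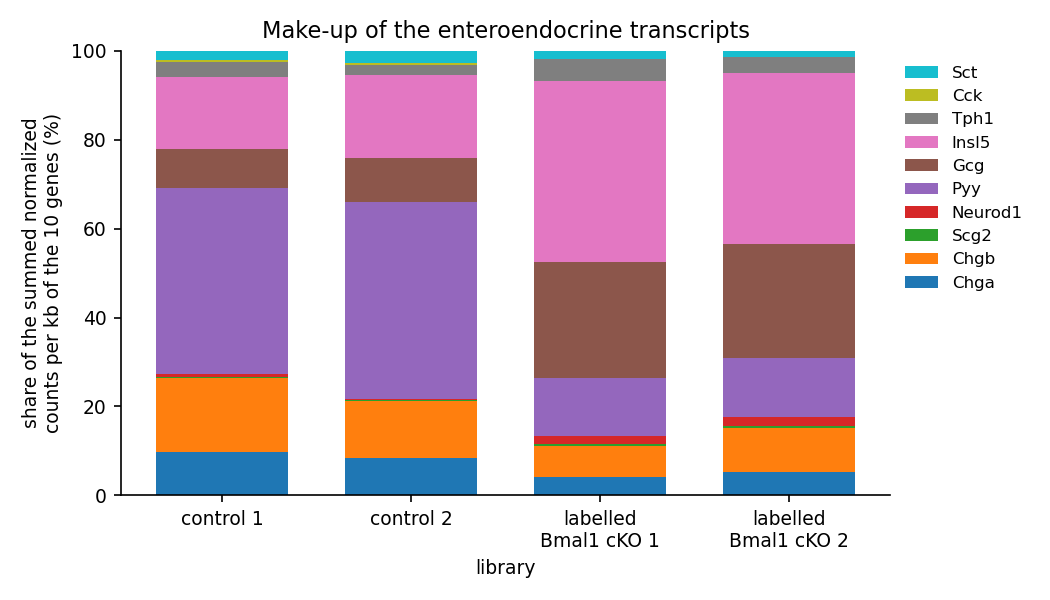
Share of each member in the summed normalized counts per kilobase of the 10 genes, in percent, stacked by library, without the GC content correction. *Pyy* takes 41.9% and 44.2% in the controls and 13.1% and 13.2% in the cKO-labelled libraries, while *Insl5* goes from 16.1% and 18.7% to 40.8% and 38.5% and *Gcg* from 8.78% and 9.97% to 26.0% and 25.6%.

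GC content moved with the group difference over the whole table, so each member was also read against it. Across the 13975 tested genes with a known sequence, the log2 fold change fell with the GC content of the transcripts (Spearman's rho -0.62). It hardly depended on GC content between the controls (0.00) and only weakly between the cKO-labelled libraries (-0.13). The median log2 fold change ran from 1.14 in the class of lowest GC content to -1.36 in the class of highest, in 10 classes of equal size. Across the 10 members rho was -0.83, given as a description over genes that share the same 4 libraries.

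**Figure D3:**
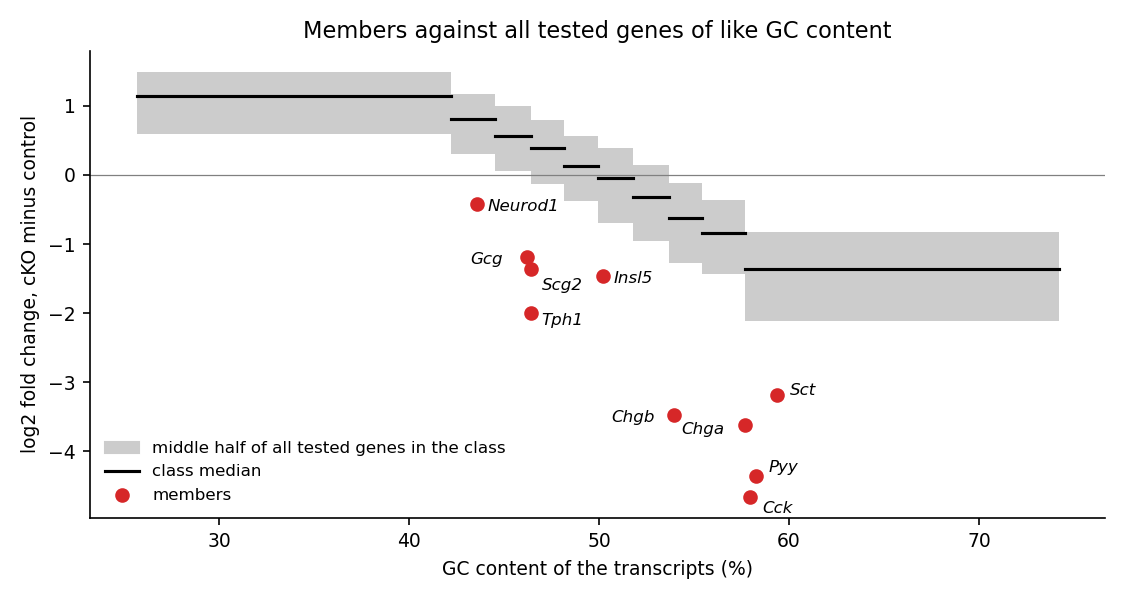
The log2 fold change (cKO-labelled minus control) against the GC content of the transcripts in percent, with the members as red points, black lines for the medians of 10 GC classes of all tested genes and grey bands for the range between their quartiles. Class medians fall from 1.14 to -1.36, and every member lies below the grey band of its class.

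Each member was lower than the median of its own GC class. *Neurod1*, with 43.6% GC, had -0.43 where its class had a median of 0.81, and *Gcg* (-1.19), *Scg2* (-1.36) and *Tph1*, with 46.2% to 46.4% GC, shared a class with a median of 0.56. *Insl5* (50.2% GC) had -1.47 against -0.05, and *Chgb* (53.9% GC) had -3.48 against -0.62. *Chga*, *Cck*, *Pyy* and *Sct*, with 57.7% to 59.4% GC, had -3.18 to -4.65 against -1.36. These classes were defined over all genes, and the part of GC content in the members' differences was not tested.

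A loess curve against GC content and transcript length, removed within each library, brought the members closer together. The corrected log2 fold changes were -2.63 for *Chga*, -3.02 for *Chgb*, -3.17 for *Pyy* and -3.56 for *Cck*, each smaller in size than before. *Sct* went to -1.82, and *Insl5* to -1.33. The GC-poor members moved the other way, to -1.15 for *Neurod1*, -1.60 for *Gcg*, -1.81 for *Scg2* and -2.52 for *Tph1*. After the correction 10 of 10 members were called lower and 0 higher, against 16.8% and 17.1% of all genes, and again nothing is read from these counts. The median over the members went from -2.59 to -2.17, with a median over all genes of -0.04 and -0.02.

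**Figure D4:**
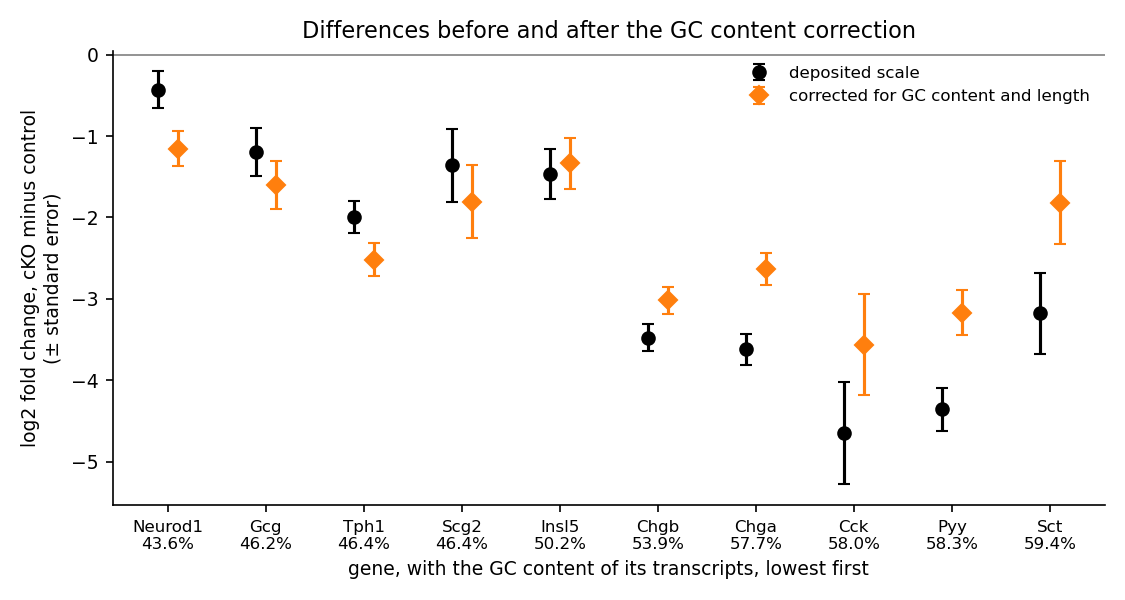
The log2 fold change (cKO-labelled minus control) of each member with its standard error, from normalized counts as deposited (black circles) and once corrected for GC content and transcript length (orange diamonds), with genes ordered from the lowest to the highest GC content in percent. All values lie below 0, and the range of -4.65 to -0.43 narrows to -3.56 to -1.15.

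The divergence of *Gcg* from *Pyy* was smaller on the corrected scale. *Gcg* per *Pyy* was then 0.880 and 0.905 in the controls and 2.74 and 2.57 in the cKO-labelled libraries, a 2.97-fold higher ratio in place of 9.02-fold. *Neurod1* per *Chga* was 2.74-fold higher after the correction in place of 8.99-fold, without overlap between the groups. *Tph1* per *Chga*, 3.14-fold higher before the correction, came to 1.34 and 0.946 in the controls and 1.62 and 0.918 in the cKO-labelled libraries, which overlap. *Insl5* per *Gcg* turned from lower to higher, with 0.736 and 0.759 against 0.922 and 0.873.

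Other genes related to enteroendocrine cells and their products were taken from 8 lists of 98 genes. The lists include receptors of the hormones, enzymes of peptide breakdown and genes that other cells also express. Of the 98 genes, 80 were listed and 72 were tested. Of these, 36 were lower and 8 higher (11.1%), against the 27.7% and 29.0% over all tested genes, and their median log2 fold change was -0.96. After the GC content correction 24 were lower and 6 higher, against 16.8% and 17.1%. Calls on both scales were made for 21 lower and 4 higher genes. Over all genes 1719 of 13975 were lower on both scales, and the number higher on both was not computed. Of the 46 wider genes with a mean of 50 or more 23 were called lower, beside 3216 of 11233 over all genes. Without any 1 of the 4 mice fewer of the wider genes were called lower, as over all genes. The spread in those fits comes from the group that still had 2 mice. All p-values here come from limma, adjusted over all tested genes.

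**Figure D5:**
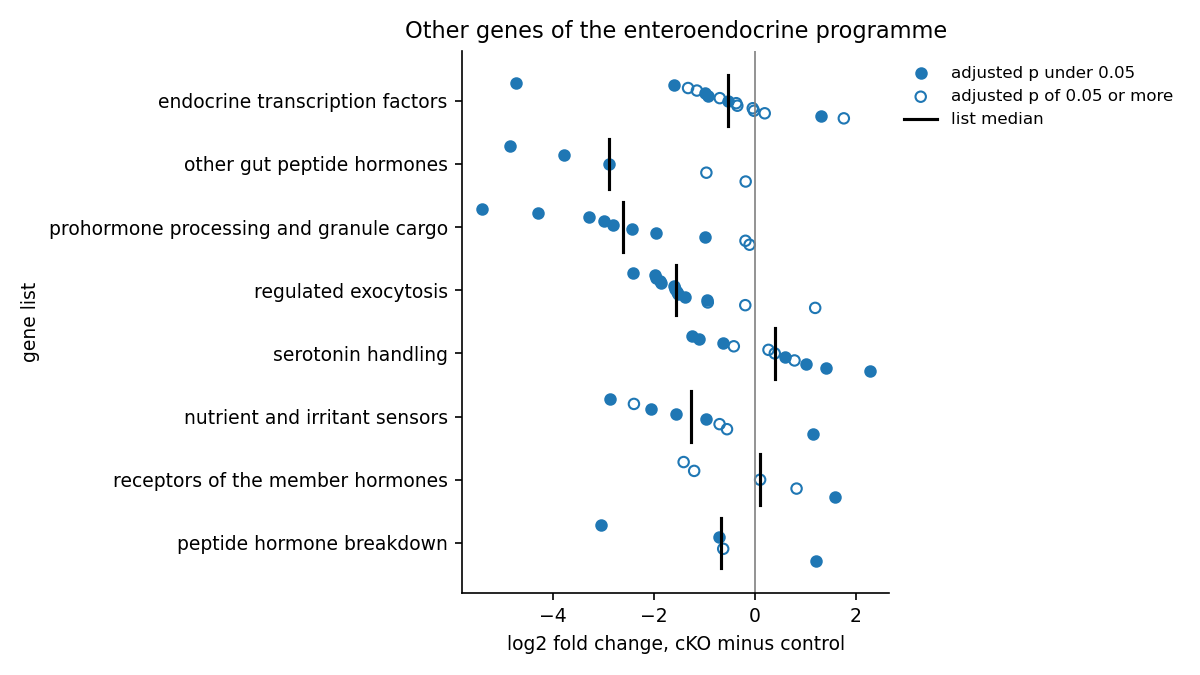
The log2 fold change (cKO-labelled minus control) of 72 tested genes in 8 lists related to enteroendocrine cells and their products. Filled circles mark an adjusted p under 0.05, open circles the rest, and a black line each list's median. Points of the granule, hormone and exocytosis lists lie mostly to the left of 0, and those of serotonin handling spread to both sides.

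Of 10 tested genes of prohormone processing and granule cargo, 8 were lower and 0 higher (median log2 fold change -2.61), beside 27.7% and 29.0% over all genes. After the correction 7 were lower, beside 16.8%. On both scales 6 were lower, beside 1719 of 13975 over all genes. *Pcsk1*, the prohormone convertase 1 gene, named after its values were seen, had 87.9 and 153 normalized counts in the controls and 67.9 and 153 in the cKO-labelled libraries, which overlap (-0.19, adjusted p = 0.751; -1.23 and adjusted p = 0.0995 after the correction). *Pcsk1n*, which encodes the proSAAS inhibitor of prohormone convertase 1, fell from 265 and 379 normalized counts to 5.14 and 8.11 (log2 fold change -5.41, adjusted p = 0.000543). *Ptprn*, a granule membrane protein gene, fell from 145 and 222 to 8.23 and 8.11 (-4.30, adjusted p = 0.000796). *Scg5*, which encodes the 7B2 chaperone of prohormone convertase 2, fell from 66.7 and 67.8 to 7.20 and 8.11 (-2.98, adjusted p = 0.00325). *Vgf*, another granin-like gene, had 24 and 38 reads in the controls and 1 and 2 in the cKO-labelled libraries, a ratio of normalized levels of 15.0 with a 95% counting interval of 4.89 to 74.5 (adjusted p = 0.0177), and was not called after the correction (adjusted p = 0.335). *Pam*, the peptide-amidating enzyme gene and the most abundant of the list, had 3254 and 3806 against 3343 and 3203, which overlap (-0.10, adjusted p = 0.445; -0.51 and adjusted p = 0.0203 after the correction).

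Regulated exocytosis, the release of granules on calcium entry, showed the same direction. Of its 14 tested genes 11 were lower and 0 higher (median -1.56), beside 27.7% and 29.0% over all genes. After the correction 7 were lower, beside 16.8%. On both scales 6 were lower, beside 1719 of 13975 over all genes. *Syp*, a vesicle membrane protein gene, went from 27.0 and 25.4 to 3.09 and 5.41 normalized counts, or 3 and 4 reads (-2.41, adjusted p = 0.0248), and *Rimbp2*, an active zone protein gene, from 215 and 256 to 55.5 and 62.2 (-1.98, adjusted p = 0.00139). *Rab3c*, a small GTPase gene of secretory vesicles, fell by 1.95 (adjusted p = 0.0183) and *Cplx2*, which encodes a complexin that clamps fusion, by 1.89 on the log2 scale (adjusted p = 0.00312). *Syt7*, a calcium sensor gene and the most abundant of the list, fell from 672 and 1247 to 260 and 351 (-1.59, adjusted p = 0.00936) but was not called after the correction (-0.51, adjusted p = 0.283).

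Many genes of the granule and exocytosis lists, and *Chgb* and *Scg2*, are also expressed by enteric neurons. The 11 listed of 13 neuron markers summed to 388 and 479 normalized counts in the controls and 173 and 103 in the cKO-labelled libraries. *Ret*, a receptor kinase gene, held most of that sum, with 240 and 298 against 141 and 94.6. The other 10 summed to 148 and 180 against 31.9 and 8.11, 8.21-fold lower in the mean. *Phox2a*, *Hand2*, *Tubb3*, *Nos1* and *Chat* were at 0 in both cKO-labelled libraries and between 3.38 and 47.3 in the controls. *Hand2* and *Nos1* had only 4 reads each in control 1. *Elavl3*, *Stmn2* and *Uchl1* were lower without overlap. *Elavl4* (4.22 and 9.32 against 8.23 and 0) and *Prph* (0 and 13.6 against 0 and 2.70) overlapped between the groups. Glia markers (3 of 7 listed) summed to 75.2 and 72.8 against 16.5 and 17.6. The part of neurons and glia in the differences of the members and lists was not tested.

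Of the other gut peptide hormones, 5 of 13 could be tested, with 3 lower and 0 higher. With 5 genes these counts cannot be set apart from the 27.7% and 29.0% over all genes. *Sst*, the somatostatin gene of D cells, fell from 119 and 180 normalized counts to 3.09 and 5.41 (-4.85, adjusted p = 0.00107), or 3 and 4 reads. *Ppy*, which encodes pancreatic polypeptide of the same family as peptide YY, fell from 242 and 399 to 35.0 and 13.5 (-3.77, adjusted p = 0.00253). *Nts*, the neurotensin gene, fell from 35.5 and 34.7 to 1.03 and 10.8 (-2.88, adjusted p = 0.0492), or 1 and 8 reads. All 3 were also lower after the correction. *Tac1*, the substance P gene and the most abundant of the list, had 855 and 321 against 238 and 304 and was not called (-0.96, adjusted p = 0.124).

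Of 15 tested endocrine transcription factor genes 5 were lower and 1 higher (27.7% and 29.0% over all genes), and 2 were lower and 2 higher after the correction (16.8% and 17.1%). Only 1 of them was lower on both scales, beside 1719 of 13975 over all genes. *Insm1* and *Foxa2*, mentioned after their values were seen, changed place: *Insm1* had -0.93 (adjusted p = 0.0246) and then 0.75 (adjusted p = 0.0772), and *Foxa2* had 0.19 (adjusted p = 0.340) and then 1.29 (adjusted p = 0.00739). *Fev*, a factor gene of serotonin cells, had 47 and 61 reads in the controls and 2 and 0 in the cKO-labelled libraries, a ratio of normalized levels of 39.1 with a 95% counting interval of 10.6 to 327 (adjusted p = 0.00692). *Lmx1a*, another factor gene of enterochromaffin cells, fell from 30.4 and 64.4 normalized counts to 14.4 and 13.5 (-1.60, adjusted p = 0.0472), and *Etv1* from 84.5 and 77.1 to 35.0 and 46.0 (-0.99, adjusted p = 0.0397). *Rfx3* rose from 199 and 167 to 459 and 442 (1.30, adjusted p = 0.00161). *Foxa1*, the most abundant of the list and also active in other epithelial cells, fell by 0.54 on the log2 scale (adjusted p = 0.00917) and had 0.15 after the correction (adjusted p = 0.356). Of the genes of this list named here only *Etv1* was called on both scales, and the adjusted p there was 0.0702 for *Fev*, 0.0547 for *Lmx1a* and 0.0640 for *Rfx3*.

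*Neurog3*, the factor gene that starts the enteroendocrine fate in progenitors, lay on the other side from the members. It was picked for mention after its values were seen. It had 20.3 and 5.93 normalized counts in the controls and 41.1 and 39.2 in the cKO-labelled libraries, without overlap. The log2 fold change was 1.76 ± 0.67 (adjusted p = 0.0697), which missed the threshold, and 2.85 after the correction (adjusted p = 0.0277), which passed it. These values rest on 24 and 7 reads in the controls.

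Of 11 tested genes of serotonin synthesis, storage, uptake and breakdown, 3 were lower and 4 higher, or 27.3% and 36.4% beside 27.7% and 29.0% over all genes. After the correction 2 were lower and 2 higher, beside 16.8% and 17.1%. These shares lie near those over all genes. *Slc18a1*, the vesicular monoamine transporter gene of enterochromaffin cells, fell from 149 and 234 normalized counts to 71.0 and 86.5 (-1.24, adjusted p = 0.0162), whereas *Slc18a2*, its homologue in neurons and blood cells, rose from 35.5 and 29.6 to 74.1 and 103 (1.40, adjusted p = 0.0170; 0.76 and adjusted p = 0.130 after the correction). *Maob*, a monoamine oxidase gene, rose from 45.6 and 61.0 to 193 and 346 (2.27, adjusted p = 0.00376), also after the correction (1.75, adjusted p = 0.0161). *Spr*, the sepiapterin reductase gene of the tetrahydrobiopterin cofactor, fell by 1.10 on the log2 scale (adjusted p = 0.00117). *Maoa*, the most abundant of the list, had 3585 and 5165 against 5076 and 6297, which overlap, and its log2 fold change of 0.39 (adjusted p = 0.153) became -0.70 on the corrected scale (adjusted p = 0.0526).

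The sensors with which enteroendocrine cells read the gut content were lower for 4 of 8 tested genes and higher for 1, and after the correction for 2 and 1. Over all genes 27.7% were lower and 29.0% higher, and 16.8% and 17.1% after the correction, so with 8 genes the corrected counts lie near those shares. *Ffar4*, a long-chain fatty acid receptor gene also named after its values were seen, was lower by adjusted p = 0.0228 (-0.96) before the correction and not after it (-0.37, adjusted p = 0.271). *Trpa1*, an irritant-gated channel gene of enterochromaffin cells, fell from 29.6 and 25.4 to 3.09 and 2.70 normalized counts (-2.87, adjusted p = 0.0148), or 3 and 2 reads. *Piezo2*, a mechanically gated channel gene of the same cells, fell from 362 and 489 to 119 and 85.2 (-2.05, adjusted p = 0.00181). *Abcc8*, the sulfonylurea receptor gene, fell by 1.55 on the log2 scale (adjusted p = 0.0154), with -0.65 and an adjusted p of 0.211 after the correction. *Slc5a1*, the sodium-glucose cotransporter gene, which absorptive cells also express, rose from 1176 and 1530 to 2865 and 3097 (1.15, adjusted p = 0.00208) and was the most abundant of the list.

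On the receiving side, 5 of 15 receptor genes of the member hormones and of serotonin could be tested. *Htr4*, a serotonin receptor gene, rose from 139 and 201 to 495 and 515 normalized counts (1.59, adjusted p = 0.00222) and was the most abundant of the list, and the other 4 were not called. Of 4 tested genes of peptide breakdown 2 were lower and 1 higher, and after the correction 1 was lower and 0 higher. With 4 genes these counts cannot be set apart from the shares over all genes (27.7% and 29.0%, then 16.8% and 17.1%). *Anpep*, the aminopeptidase N gene, fell from 135 and 130 to 15.4 and 14.9 (-3.05, adjusted p = 0.00115). *Dpp4*, whose enzyme inactivates glucagon-like peptide 1, rose from 484 and 465 to 987 and 1222 (1.21, adjusted p = 0.00139), with 0.37 and an adjusted p of 0.0765 after the correction. *Ece1*, the endothelin-converting enzyme gene and the most abundant of this list, fell by 0.72 on the log2 scale (adjusted p = 0.00955) and had 0.02 after the correction (adjusted p = 0.928).

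The genes with profiles most like that of *Chga* over the 4 libraries were *Hmox1*, *Chgb*, *Itgb2*, *Fgr* and *Fam43a*, out of 9982 genes whose mean reached 100 normalized counts. Their root mean square difference from *Chga*, on centred log2(normalized count + 1), was between 0.094 and 0.195. *Hmox1* encodes heme oxygenase 1, and *Itgb2* and *Fgr* encode an integrin chain and a kinase of leukocytes. *Chgb* was nearest of the members compared (rank 2), and *Pyy* came at rank 39, *Tph1* at 337, *Insl5* at 706 and *Gcg* at 1066. *Scg2*, *Neurod1*, *Cck* and *Sct* did not reach the mean of 100 and were not compared. With 4 libraries a profile has few values, so many genes can come close to it.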

How the data were processed

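RNA sequencing covered colonic epithelial cells of 2 mice labelled WT, the controls, and 2 labelled *Bmal1* cKO, each library 1 mouse. Per the labels and methods, the authors aligned reads to GRCm38 with STAR and used DESeq2. The read counter and annotation release are not given in the sources used here, and the library kit differs between labels (VAHTS) and methods (NEBNext). The authors deposited a signal per library, which is the gene count scaled by a size factor. They also deposited log2 fold changes, a score (the Wald statistic) and p-values, which were not used. No per-library column was left without a sample.

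The members and lists were chosen with earlier results of these data known. In the deposited signal, 100% of values were whole multiples (within 0.05) of 1 read, and the count models ran on these reads. The main test was limma 3.58.1 (R 4.3.3) with a mean-variance trend on log2(normalized count + 1), for genes whose mean reached 10, two-sided and adjusted by Benjamini-Hochberg, with 0.05 as the threshold. A fold change on this scale understates the change of low genes. An exact permutation test of 2 against 2 cannot go below p = 0.333, so none is given. Replicates differed beyond sampling noise (chi-square per gene 42.1 for the controls and 11.1 for the cKO-labelled libraries).

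Exon lengths and GC content came from GENCODE M21, in which 16008 of 16015 genes were matched, and the correction was a robust loess (span 0.3). On data simulated for this comparison, with 13982 genes, 152 of 200 changed genes and 3 unchanged genes were called. The simulation gave all genes the same dispersion, held no trend with GC content and changed only these 200 genes. Its counts are therefore not error rates for the real libraries.

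Genes named were the members, *Arntl*, from each list up to 4 called genes with the largest log2 fold change and the most abundant tested gene, defining genes of the marker lists, and the 5 genes most like *Chga*. *Neurog3*, *Insm1*, *Foxa2*, *Pcsk1* and *Ffar4* were added after their values were seen. All listed neuron markers were named, grouped by being at 0 or by overlap, with *Ret* set apart for its share of the sum. Alternatives were pseudocounts (0.5 and 5), filters, scalings, edgeR 4.0.16, DESeq2 1.42.0, the GC content correction, a replicate block and leaving out each mouse.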

Additional observations from a re-analysis of the deposited data

How the results depend on the processing

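The 10 members kept their direction in 158 of 158 values over 16 alternatives, and 21 values moved by more than the spread between replicates. Every alternative reuses the libraries on which the members were chosen, so their direction is not tested by it. Between 6 and 10 members were called lower and 0 higher. A fit without 1 mouse takes its spread from the group that still has 2, and the lone mouse is assumed to vary alike. In such fits, without either cKO-labelled mouse *Gcg*, *Insl5*, *Scg2* and *Neurod1* were not called, and *Scg2* was also not called without either control, without a filter, in edgeR, in DESeq2, with a replicate block or with scaling by the summed epithelial markers. A minimum mean of 50 left *Scg2* and *Cck* untested, and a least squares loess left *Insl5* and *Sct* uncalled.

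Among all genes, 3871 lower and 4059 higher calls became 2345 and 2386 after the GC content correction, and 1521 and 3994 with a least squares loess, chosen after seeing the data. Leaving out 1 mouse gave 2205 to 2852 lower and 2654 to 3154 higher. Scaling by the listed total gave 4885 lower and 3091 higher and moved the median of all genes from -0.04 to -0.26, and scaling by summed epithelial markers, also added after seeing the data, gave 3015 and 4620 with a median of 0.17 (0.26 with least squares).

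Of the wider genes, 36 lower became 23 with a minimum mean of 50, 24 after the correction, 21 with least squares and 20 to 23 without 1 mouse. *Arntl* lay between -0.45 and 0.05 (adjusted p between 0.0598 and 0.853) and reversed only with epithelial scaling, to 0.050. Replicate numbers did not pair the mice (r = -0.09 between same-numbered deviations). The replicate block gave 3789 lower and 3899 higher genes, 34 and 9 wider genes and 8 and 0 members.

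With 2 mice per group, each limma p-value sets the group difference against the spread between mice within the groups. Limma estimates that spread partly from other genes of like level. Some genes rest on few reads in the cKO-labelled libraries together, with 2 for *Fev*, 3 for *Cck* and *Vgf*, 5 for *Trpa1*, 7 for *Syp* and *Sst*, and 9 for *Nts*.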
